A study of Homo sapiens with 24 samples.

Results

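The angiopoietin and TIE receptor loci were described here by histone H3 lysine 27 acetylation (H3K27ac) in 2 human endothelial lines. The set holds 6 gene windows of the hg19 build, fixed by position and not by any measured value: ANGPT1 (chromosome 8, 108.24 to 108.53 Mb), ANGPT2 (chromosome 8, 6.34 to 6.44 Mb), TEK (chromosome 9, 27.09 to 27.25 Mb), TIE1 (chromosome 1, 43.75 to 43.8 Mb), PTPRB (chromosome 12, 70.89 to 71.05 Mb) and ANGPTL4 (chromosome 19, 8.41 to 8.45 Mb). Peaks of the 20 ChIP libraries with a −log10 q of 2 or more fell in 56 merged regions of these windows, of 89609 in the genome. The windows span 80 bins of 10 kb. Peaks touched 35 of these bins, and 23 passed the filter on covered length, of 39412 tested genome-wide. No peak of the 4 input libraries lay in any window. The inputs are all from day 0 controls and held only 99 to 133 peaks each in the genome, so this says little about the ChIP peaks.

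TeloHAEC are telomerase-immortalized human aortic endothelial cells, and Eahy926 is a hybrid line made by fusing endothelial cells with a lung carcinoma line. Both are parental lines in the labels, so each condition is a state of 1 culture line and not of several donors. Each line had 2 untreated control libraries prepared on day 0 and 2 on day 1. On day 1 each line also had 2 libraries from cells given the inflammatory cytokine interleukin 1 beta (IL1b) and 2 from cells given tumor necrosis factor alpha (TNFa). Either cytokine was used at 10 ng/ml, and exposure lasted 24 h. TeloHAEC grew in an endothelial medium that contains vascular endothelial growth factor (VEGF), and 2 libraries came from medium without it. Eahy926 grew in a medium that lacks VEGF, and 2 libraries came from medium with VEGF added. In both lines the change of VEGF also lasted 24 h. In library names such as TeloHAEC control 1.1, the number before the dot is the preparation day and the number after it the biological replicate in the labels. Nothing in the labels says from which cultures the replicates came, so the tests measure the spread between these libraries, which may be technical.

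ANGPT1 and ANGPT2 encode secreted ligands of TIE2, the receptor tyrosine kinase of endothelial cells that TEK encodes. ANGPT1 is made mostly by cells around the vessel and activates TIE2, which keeps the endothelium quiet, and ANGPT2 is made and stored by endothelial cells and can block that signal in inflamed or growing vessels. TIE1 is a related receptor that pairs with TIE2, and PTPRB encodes VE-PTP, a phosphatase that dephosphorylates TIE2. ANGPTL4 encodes a related secreted protein that inhibits lipoprotein lipase and is not a TIE2 ligand. H3K27ac marks active promoters and enhancers, and neither its signal nor its peaks have a strand. No hg19 annotation was used, so a peak is placed by position in a window and not in an exon, an intron or at a start site. In RefSeq (GRCh38.p14, names and order only) ANGPT2 lies inside MCPH1, PTPRB is next to PTPRR, and ANGPTL4 lies between KANK3 and RAB11B, so a peak in those windows need not belong to the gene that names the window.

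Depth differed with the preparation day. Day 0 ChIP libraries held 18387194 to 21135399 tags and day 1 libraries 3843129 to 7122108. Their peaks covered 34.0 to 40.3 Mb and 13.2 to 30.1 Mb. The 3 shortest lists were TeloHAEC control 1.1 with 13.2 Mb, TeloHAEC without VEGF 1.1 with 14.1 Mb and Eahy926 IL1b 1.2 with 14.4 Mb. The value used for each library is the length under its peaks, scaled to the same total covered length in all libraries and called covered bp here. Scaling raises the values of short lists and lowers those of the long day 0 lists, and its part in any result was not tested beyond the alternatives given. In these bulk libraries fewer cells carrying the mark and less of it per cell cannot be told apart. Identity of the cells could be read only from the TIE receptors themselves, since no hg19 positions of other marker genes were used. The TEK and TIE1 windows held peaks in all 20 ChIP libraries.

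The ANGPT1 window was nearly empty of acetylation. None of the 10 TeloHAEC libraries had a peak in its 290 kb. In Eahy926 the window held 1121 and 787 covered bp in the day 0 controls and 308 and 965 bp with VEGF added, while both day 1 controls and both IL1b libraries were at 0. With TNFa, replicate 1 was at 0 and replicate 2 at 547 bp. Peaks were thus found in 5 of 10 Eahy926 libraries, in 5 small regions of which none was shared by more than 4 libraries. The region at 108348164 to 108348702 held 364 and 325 bp in the day 0 controls, 258 bp in Eahy926 TNFa 1.2 and 280 bp in Eahy926 with VEGF 1.2, and its peaks had a fold enrichment of 4.31 to 6.86 in the authors' deposited table. The region at 108507743 to 108508115 was found in the day 0 controls alone, with 216 and 258 bp and a fold enrichment of 3.85 to 3.97 in the authors' deposited table. The region found in both VEGF libraries lay at 108509512 to 108510165, with 308 and 375 bp. It was also present in Eahy926 control 0.1 with 346 bp and in Eahy926 TNFa 1.2 with 290 bp. The region at 108509512 was the single region of the windows gained with VEGF in Eahy926, that is, present in both treated and in neither day 1 control library. Genome-wide, 1.08% of regions were gained in this way and 0.759% were lost with VEGF, and no region of the windows was lost. In the authors' deposited table, the fold enrichment of its peaks over local background ran from 3.36 to 4.82. Fold enrichments are the authors' values throughout and are used here only to describe peaks within their own lists.

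The only tested ANGPT1 bin, 108500001 to 108510000, rose with VEGF in Eahy926 by a log2 difference of 1.43 (SE 0.22, limma with Benjamini-Hochberg adjustment over all bins, adjusted p = 0.0194). It was the only one of 23 tested bins of the windows called for VEGF addition, where 0.259% of all bins were called. The call did not hold against the controls of both days (log2 difference 0.44, limma adjusted p = 0.435). The bin held 741 and 462 bp in the day 0 controls, 0 in both day 1 controls and 308 and 375 bp with VEGF. It was also lost when 1 of 3 libraries was left out (adjusted p = 0.0545 without Eahy926 control 1.1, 0.0539 without Eahy926 control 1.2 and 0.0772 without Eahy926 with VEGF 1.2). In the controls of both days the same bin was lower in TeloHAEC, by a log2 difference of −0.99 (adjusted p = 0.000269). That difference rests on the day 0 libraries, since the bin was at 0 in the day 1 controls of both lines. The bin passed the filter on covered length only through the Eahy926 day 0 controls, where it is high. Without either of them it was not tested, so the comparison of the lines gives no support of its own here.

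ANGPT2, the ligand that endothelial cells make themselves, was acetylated in every library. Its 4 main regions, 6343674 to 6345476, 6385322 to 6386998, 6404308 to 6406012 and 6415405 to 6418061, each had a peak in all 10 libraries of both lines. Altogether 11 of the 56 regions had a peak in all 20 libraries, against 10.8% of regions genome-wide. The region at 6385322 held some of the strongest peaks of the set. In the authors' deposited table its fold enrichment reached 11.9 in TeloHAEC and 10.1 in Eahy926, and the median peak stood at percentile 95.1 of its own list in TeloHAEC and 93.7 in Eahy926. The region at 6415405 had the longest coverage. It held 634 to 1791 covered bp in TeloHAEC (median 1430) and 1563 to 2398 bp in Eahy926 (median 1995). The smaller region 6427743 to 6428345 had peaks in 5 of 10 TeloHAEC libraries, both TNFa libraries among them, and in no Eahy926 library.

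Over the whole ANGPT2 window, TeloHAEC held 4566 and 4287 bp in the day 0 controls, 4693 and 5326 bp in those of day 1, 5318 and 5603 bp with IL1b, 4716 and 5231 bp with TNFa and 6209 and 5187 bp without VEGF. Eahy926 held 4338 and 4531 bp in the day 0 controls, 5899 and 6068 bp in those of day 1, 6580 and 7207 bp with IL1b, 6078 and 5849 bp with TNFa and 5945 and 5483 bp with VEGF. The lines overlapped on day 0, while on day 1 each Eahy926 control and cytokine library lay above its TeloHAEC counterparts. Over the 16 libraries of the conditions both lines share, TeloHAEC had a mean of 4967 bp ± 461 (SD, n = 8) and Eahy926 of 5819 bp ± 963 (SD, n = 8). The mean log2 difference within condition and day was −0.21, with the same sign in 4 of 4 conditions (exact two-sided permutation test, p = 0.00463, unadjusted, as for each of the 6 windows). Within the controls alone it was −0.13 (exact permutation p = 0.167). By condition it was −0.003 in day 0 controls, −0.25 in day 1 controls, −0.32 with IL1b and −0.25 with TNFa. Before scaling TeloHAEC was higher on day 0 (6694 and 6886 against 6426 and 6154 bp) and with IL1b (6392 and 5503 against 5265 and 4154 bp). Eahy926 had the higher unscaled mean in day 1 controls and with TNFa. The shared sign thus rests on the scaling.

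By bin, 6410001 to 6420000, which holds the longest region, was lower in TeloHAEC controls, with 1313 bp ± 465 (SD, n = 4) against 1860 bp ± 322 in Eahy926 (SD, n = 4). The log2 difference was −0.50 (SE 0.17, limma adjusted p = 0.036). The call was lost without any 1 of 7 of the 8 control libraries, with adjusted p reaching 0.106, and was kept without TeloHAEC control 1.2 (adjusted p = 0.000358). Without the low TeloHAEC control 1.1, at 634 bp, the difference was −0.26 (adjusted p = 0.0945). No treatment gave a called bin in the ANGPT2 window.

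TEK, the gene of the TIE2 receptor, held 16 regions, all between 27094176 and 27195555, and no peak of any library lay in the remaining stretch to the end of the window. Regions at 27117938 to 27119741 and 27193620 to 27195555 had peaks in all 20 libraries. The region at 27141514 to 27143583 had a peak in all 10 TeloHAEC libraries and in none of Eahy926. It was the only such region of the windows, where 1.94% of regions genome-wide were found in TeloHAEC alone, and none showed the reverse pattern, held by 1.24% genome-wide.

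This region held 689 and 489 covered bp in the TeloHAEC day 0 controls, 1285 and 1070 bp in those of day 1, 1556.5 and 1742 bp with IL1b, 1393 and 1382.5 bp with TNFa and 772 and 1305 bp without VEGF. The lowest library was thus well above 0, and the 4 cytokine libraries were the 4 highest. All 10 peaks also passed a stricter −log10 q of 5. Their fold enrichment in the authors' deposited table ran from 3.98 to 5.54. When a library counted only where its peaks covered at least 50% of the region, no region of the windows was found in 1 line alone. The bin that holds it, 27140001 to 27150000, was higher in TeloHAEC controls, with 883 bp ± 360 (SD, n = 4) against 0 in all 4 Eahy926 controls. The bin was at 0 in all 10 Eahy926 libraries, which add no spread to the fit and so lower its SE and p. It passed the filter on covered length only through TeloHAEC libraries, where it is high. The comparison of the lines thus gives no support of its own here. The log2 difference was 2.37 (SE 0.14, limma adjusted p = 3.93e-08). It stayed called without any 1 library, and was 0.53 (adjusted p = 0.334) when every list was reduced to the same covered length of 13.2 Mb.

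**Figure D1:**
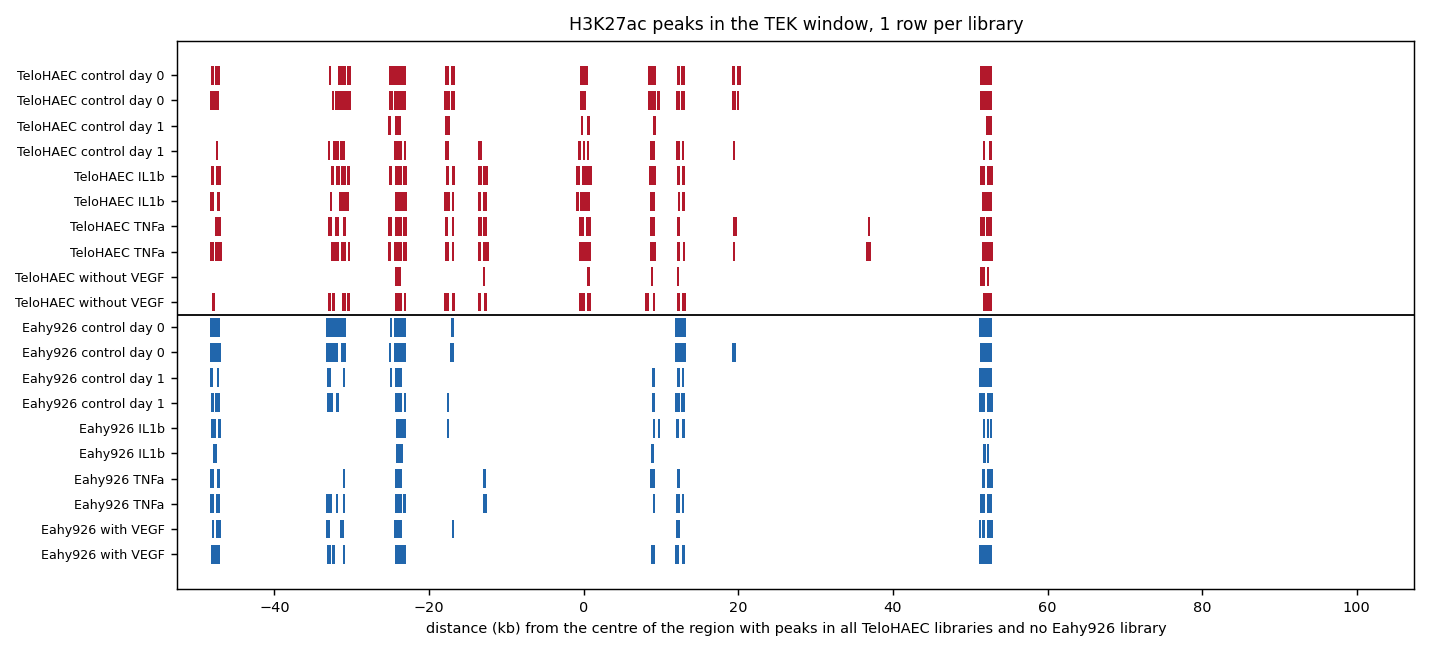
H3K27ac peaks in the TEK window, 1 row per library, red for TeloHAEC and blue for Eahy926. The horizontal axis is the distance in kb from the centre of the region found in all 10 TeloHAEC libraries and no Eahy926 library, and bars are peaks drawn to scale. The blocks of peaks shared by all 20 libraries flank that centre on both sides, and the rows of TeloHAEC control 1.1, TeloHAEC without VEGF 1.1 and Eahy926 IL1b 1.2 hold the fewest bars (7, 7 and 5 peaks).

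The sequences before the TEK, TIE1 and ANGPTL4 starts are shown because these windows held peaks in all 20 libraries. The ANGPT2 and PTPRB windows did too, but the RefSeq promoter entries used here did not include ANGPT1, ANGPT2 or PTPRB. RefSeq (GRCh38.p14, plus strand) lists 2 starts for TEK and 1 each for TIE1 and ANGPTL4. The 150 bases before each start are at chr9:27109075-27109224, chr9:27109300-27109449, chr1:43300832-43300981 and chr19:8364005-8364154 of that build, which cannot be set against the hg19 peak positions. Capitals mark GGAA, the core bound by ETS factors, and CACCC, the core bound by KLF factors, on either strand, so that TTCC and GGGTG are marked too.
TEK first start: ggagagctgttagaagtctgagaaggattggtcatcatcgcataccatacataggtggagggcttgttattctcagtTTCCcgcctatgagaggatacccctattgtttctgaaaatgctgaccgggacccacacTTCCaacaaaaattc
TEK second start: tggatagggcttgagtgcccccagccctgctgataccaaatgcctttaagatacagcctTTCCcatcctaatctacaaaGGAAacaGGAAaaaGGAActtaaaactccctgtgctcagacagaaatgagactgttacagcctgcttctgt
TIE1: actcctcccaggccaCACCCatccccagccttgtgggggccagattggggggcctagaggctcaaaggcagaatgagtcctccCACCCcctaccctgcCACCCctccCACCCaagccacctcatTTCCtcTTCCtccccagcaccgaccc
ANGPTL4: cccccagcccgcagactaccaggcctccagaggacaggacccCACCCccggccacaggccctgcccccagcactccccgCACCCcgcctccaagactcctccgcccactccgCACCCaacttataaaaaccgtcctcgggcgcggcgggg
GGAA was matched 2 and 4 times before the TEK starts, 2 times before TIE1 and not before ANGPTL4, where 80.3% of 35116 promoter entries hold at least 1 match in the same 150 bases. CACCC was matched 4 times before TIE1, 3 times before ANGPTL4 and not before either TEK start, where 39.6% of entries hold a match. ACGTG, the core of the hypoxia element, TGACTCA of AP-1 and TGTTTAC of forkhead factors were searched on both strands without a match in the 4 sequences, and are found in 12.6%, 2.89% and 1.73% of entries. The marked matches do not overlap one another, and a match is a description of the letters and not a site.

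Over the whole TEK window, TeloHAEC held 7956 and 7722 bp in the day 0 controls, 6879 and 8218.5 bp in those of day 1, 9660 and 10684 bp with IL1b, 10494 and 11001 bp with TNFa, and 5272 and 9259 bp without VEGF. All 4 cytokine libraries lay above all 4 controls. Eahy926 held 6265 and 6820 bp in the day 0 controls, 6388 and 7036 bp in those of day 1, 6083 and 4079 bp with IL1b, 5369 and 6541 bp with TNFa and 6364 and 6869 bp with VEGF. Here both IL1b libraries lay below all 4 controls, and TNFa overlapped them. With 2 libraries against 2, an exact permutation test of a treatment cannot give a p below 0.333, so none was run on the window sums. Before scaling, the TeloHAEC day 0 controls had 11665 and 12403 bp and the cytokine libraries 10405 to 12549 bp, so the order of those groups rests on the scaling.

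Between the lines, TeloHAEC had a mean of 9077 bp ± 1572 (SD, n = 8) over the shared conditions and Eahy926 of 6073 bp ± 950 (SD, n = 8). The log2 difference of the TEK window was 0.56, with the same sign in 4 of 4 conditions (exact two-sided permutation test, p = 0.00309, unadjusted). It was 0.25 in day 0 controls, 0.16 in day 1 controls, 1.00 with IL1b and 0.84 with TNFa. In the controls alone the mean was 0.21 (exact permutation p = 0.111), and with every list reduced to the same covered length 0.34 (exact permutation p = 0.21).

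**Figure D2:**
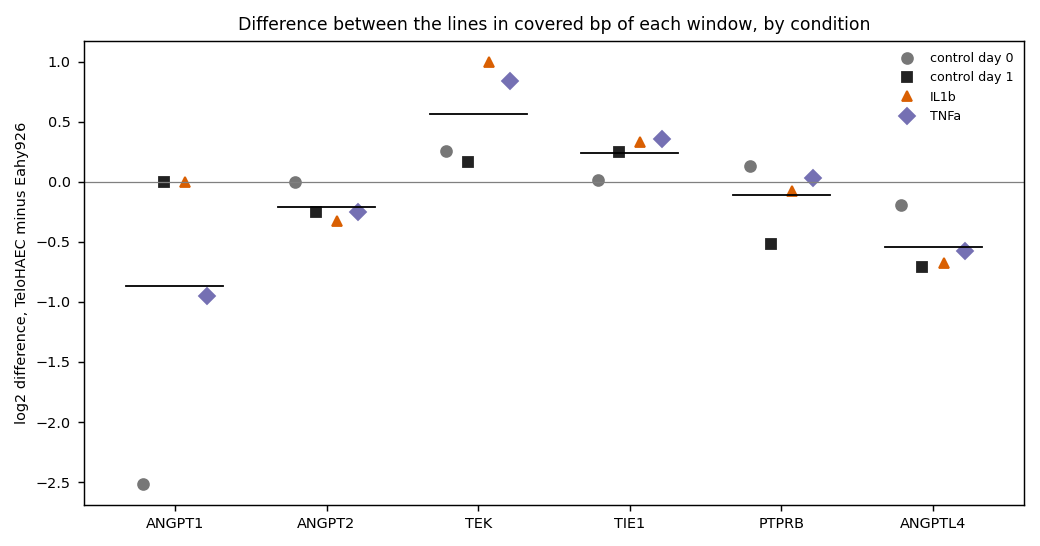
Log2 difference in covered bp of each window, TeloHAEC minus Eahy926, for each condition that both lines share. Each symbol is the difference of means of 2 libraries per line, and each bar the mean over the 4 conditions. TEK and TIE1 lie above 0 in all 4 conditions, ANGPT2 and ANGPTL4 below it, and PTPRB on both sides. In the day 0 controls TIE1 (0.011) and ANGPT2 (−0.003) lie almost at 0. TEK differs most with IL1b (1.00) and TNFa (0.84).

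Of the 23 tested bins of all windows, 10 were called between the lines in controls, against 43.0% of bins genome-wide, so the share was near the background. Of these, 4 were higher in TeloHAEC, where 22.8% were genome-wide, and 6 were higher in Eahy926, where 20.1% were. The 4 higher in TeloHAEC passed the filter on covered length only through TeloHAEC libraries. Their calls thus give no support of their own for a line difference. The median log2 difference of the 23 bins was −0.12. TEK held 5 of the 10 in both directions. Beside the bin at 27140001, bin 27120001 to 27130000 had 948 bp ± 250 in TeloHAEC controls and 246 bp ± 164 in Eahy926 controls (SD, n = 4 each), a log2 difference of 1.45 (limma adjusted p = 0.0174), lost without Eahy926 control 1.1 (adjusted p = 0.078). Bin 27160001 to 27170000 was also higher in TeloHAEC, by 0.96 (adjusted p = 0.0283), with all of its coverage of over 500 bp in the day 0 libraries. It was lost without Eahy926 control 0.1 (adjusted p = 0.127), Eahy926 control 1.1 (0.064), Eahy926 control 1.2 (0.0641) or TeloHAEC control 1.2 (0.106), and without either TeloHAEC day 0 control it did not pass the filter.

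At the other end of the TEK window the direction turned. Bin 27090001 to 27100000 was lower in TeloHAEC controls, with 436 bp ± 340 against 965 bp ± 144 in Eahy926 (SD, n = 4 each), a log2 difference of −1.09 (limma adjusted p = 0.0146). It was lost without Eahy926 control 1.2 (adjusted p = 0.0504) or TeloHAEC control 1.1 (adjusted p = 0.0538). Bin 27100001 to 27110000 was lower too, by −1.43 (adjusted p = 0.0363), with 134 bp ± 163 against 626 bp ± 80.7 (SD, n = 4 each), and was lost in 6 of 8 fits that left out 1 control library (adjusted p up to 0.133). This second bin passed the filter only with the help of Eahy926 libraries, where it is high, so its call gives no support of its own. TEK bins of opposite direction thus lay in 1 gene window, and the window sum joins them.

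Bin 27090001 to 27100000 was also the only bin of the windows called with a cytokine. It rose in TeloHAEC with IL1b by a log2 difference of 1.78 (SE 0.45, limma adjusted p = 0.0444) and with TNFa by 1.85 (SE 0.45, adjusted p = 0.0414), and the comparisons share the same day 1 controls. Genome-wide, 4.29% of bins were called with IL1b and 3.55% with TNFa in TeloHAEC, near the 1 in 23 found here. The bin held 0 and 334 bp in the TeloHAEC day 1 controls, 850 and 998 bp with IL1b, and 783 and 1219 bp with TNFa. The library at 0 was TeloHAEC control 1.1, the shortest list, and the day 0 controls held 700 and 711 bp. Without TeloHAEC control 1.1 the differences were 1.07 (adjusted p = 0.301) and 1.15 (adjusted p = 0.274), and against the controls of both days 1.04 (adjusted p = 0.165) and 1.12 (adjusted p = 0.137). Both calls were also lost without either treated library (adjusted p = 0.132 and 0.177 for IL1b, 0.0816 and 0.209 for TNFa). Without TeloHAEC control 1.2 both were kept, with adjusted p = 0.00241 for IL1b and 0.0021 for TNFa.

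The region 27129520 to 27130240 of the TEK window had peaks in treated libraries alone. It was covered with 482 and 535 bp with IL1b in TeloHAEC, 434 and 604 bp with TNFa, and 518 and 362 bp without VEGF, and was at 0 in all 4 TeloHAEC controls. In Eahy926 it held 384 and 492 bp with TNFa and was at 0 in the other 8 libraries. The day 0 controls had no peak there in either line, and the part of depth or preparation day was not tested. These were low peaks. Their fold enrichment in the authors' deposited table ran from 2.85 to 4.34 in TeloHAEC and from 2.83 to 3.16 in Eahy926, and at −log10 q of 5 the region was present in 4 TeloHAEC libraries and in no Eahy926 library. Its neighbour 27128876 to 27129366 had peaks in both IL1b, both TNFa, 1 control and 1 VEGF-free library of TeloHAEC and in no Eahy926 library.

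The gain at 27129520 counted for IL1b, TNFa and VEGF omission in TeloHAEC, which share the same 2 day 1 controls, and for TNFa in Eahy926. In all, 3 of the 56 regions were gained with IL1b in TeloHAEC, against 5.07% genome-wide, 3 with TNFa, against 4.59%, and 1 without VEGF, against 1.07%. In Eahy926, 1 was gained with TNFa, against 2.02%, and none with IL1b, against 0.311%. None was lost in TeloHAEC with IL1b, TNFa or VEGF omission, where 0.56%, 0.429% and 0.886% of regions were lost genome-wide. The second TEK gain with either cytokine, 27125310 to 27125944, had peaks in both TeloHAEC day 0 controls (310 and 306 bp). The third gain with TNFa, 27179031 to 27179668, had 275 and 559 bp in the TNFa libraries and no peak in the other 18.

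Losses in the windows were seen in Eahy926. With IL1b, 2 regions were lost, against 2.07% genome-wide, and with TNFa 1, against 0.956%. The TEK region 27109163 to 27112485 had peaks in 8 of 10 Eahy926 libraries and was at 0 in both IL1b libraries, while the day 1 controls held 992 and 1295 bp. Of the IL1b libraries, 1.2 had the short list of 14.4 Mb, and 1.1, with 20.1 Mb, had no peak there either. In TeloHAEC the same region was covered with 1278 to 1888 bp in 8 libraries and was at 0 in TeloHAEC control 1.1 and TeloHAEC without VEGF 1.1, the 2 shortest lists of that line. No bin of the windows was called with IL1b in Eahy926 (0.794% of all bins), where 1 of 23 had an unadjusted limma p under 0.05, or with TNFa in Eahy926 (1.21%), where 0 of 23 did. None was called for VEGF omission in TeloHAEC (1.67%; 2 of 23 unadjusted), for the difference between lines in the cytokine response (1.93%; 4 of 23) or for IL1b against TNFa (1.3%; 1 of 23).

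**Figure D3:**
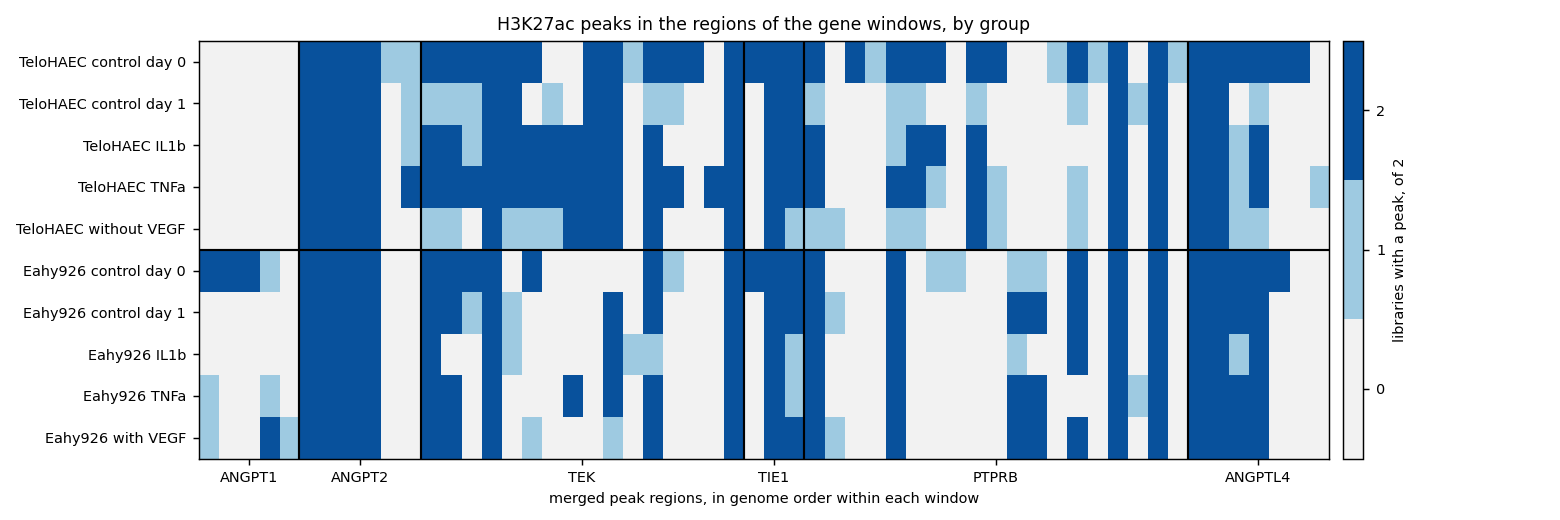
Number of libraries with an H3K27ac peak, of 2, in each of the 56 merged regions of the windows (columns, in genome order within each window) and each group (rows, TeloHAEC above the line and Eahy926 below). ANGPT2 shows 4 columns filled in every group, ANGPT1 is empty in TeloHAEC, and TEK holds the only column filled in all TeloHAEC groups and empty in all Eahy926 groups.

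TIE1, the receptor that pairs with TIE2, had 3 regions. The main one, 43765809 to 43767740, had peaks in all 20 libraries, with 897 to 2151 covered bp in TeloHAEC (median 1457) and 862 to 1638 bp in Eahy926 (median 1295). In the authors' deposited table its median fold enrichment was 5.5 in TeloHAEC and 6.82 in Eahy926. The region 43795378 to 43796758, near the end of the window, had peaks in 9 TeloHAEC and 8 Eahy926 libraries. It was at 0 in Eahy926 IL1b 1.1, Eahy926 TNFa 1.1 and TeloHAEC without VEGF 1.1. At −log10 q of 5 it was present in 7 TeloHAEC libraries and in 1 of Eahy926. The third, 43760128 to 43760695, was found in the 4 deeply sequenced day 0 libraries alone.

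Over the TIE1 window, TeloHAEC held 1923 and 1793 bp in the day 0 controls, 2845 and 2360 bp in those of day 1, 1878 and 1900 bp with IL1b, 2127 and 2046 bp with TNFa and 2151 and 2218 bp without VEGF. Eahy926 held 1583 and 2136 bp in the day 0 controls, 1794 and 2558 bp in those of day 1, 1522 and 1409 bp with IL1b, 1553 and 1618 bp with TNFa and 1790.5 and 1690 bp with VEGF. In both lines every treated library lay below the day 1 controls, while in TeloHAEC the treated libraries overlapped or exceeded the day 0 controls. Neither TIE1 bin was called in any comparison. The lines differed by 0.24 on the log2 scale over the shared conditions, TeloHAEC being higher, with 2109 bp ± 346 against 1772 bp ± 388 (SD, n = 8 each), in 4 of 4 conditions (exact two-sided permutation test, p = 0.017, unadjusted). This did not hold in the controls alone (0.13, exact permutation p = 0.444), and the day 0 controls differed by only 0.011. Without Eahy926 control 0.1 the exact permutation p was 0.0679, without TeloHAEC control 1.1 it was 0.0633 and without Eahy926 control 1.1 it was 0.0556.

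PTPRB, which encodes the phosphatase that acts on TIE2, held 19 regions. The largest were 71038578 to 71041492 and 71030011 to 71032401, near the upper end of the window. On that side PTPRR lies 0.6 kb from PTPRB in RefSeq, so which of these genes the regions belong to was not settled. Both had peaks in all 20 libraries. The first held 1142 to 2421 covered bp in TeloHAEC (median 1999) and 1554 to 2854 bp in Eahy926 (median 2547). The second held 1209 to 2382 bp in TeloHAEC (median 1668) and 863 to 1279 bp in Eahy926 (median 1142), and overlapped between the lines only at its edges. The neighbours thus leaned in opposite directions between the lines. The third largest, 70936724 to 70938369, had peaks in all 10 Eahy926 libraries and in 7 of TeloHAEC.

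Further into the PTPRB window some small regions had peaks in 1 line alone. Region 70991960 to 70992725 had peaks in 9 TeloHAEC libraries and 70942471 to 70943239 in 8, and neither had a peak in Eahy926. Region 70996269 to 70997033 had peaks in 8 Eahy926 libraries and 70997093 to 70997745 in 7, and neither had a peak in TeloHAEC. None of the 4 met the rule of all 10 libraries of a line, and they are named here after their values were seen. The share of regions with such a pattern genome-wide was not counted, so they are a description only. At −log10 q of 5 they were present in 7, 6, 5 and 3 libraries, in the order named. Peaks of 70997093 were low, with a median fold enrichment of 2.97 (percentile 5.84 of their own lists) in the authors' deposited table. Region 70997093 was lost with IL1b in Eahy926. It held 495 and 534 bp in the day 1 controls, 434 and 429 bp with TNFa and 314 and 528 bp with VEGF, and 0 in both IL1b libraries. In the day 0 controls it held 198 and 0 bp. Region 71003391 to 71004756 was lost with TNFa in Eahy926, at 0 in both libraries against 357 and 350 bp in the day 1 controls, and held 622 and 767 bp with IL1b. Region 70943399 to 70944179 was gained with IL1b in TeloHAEC, with 569 and 670 bp, and had 233 and 197 bp in the day 0 controls.

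**Figure D4:**
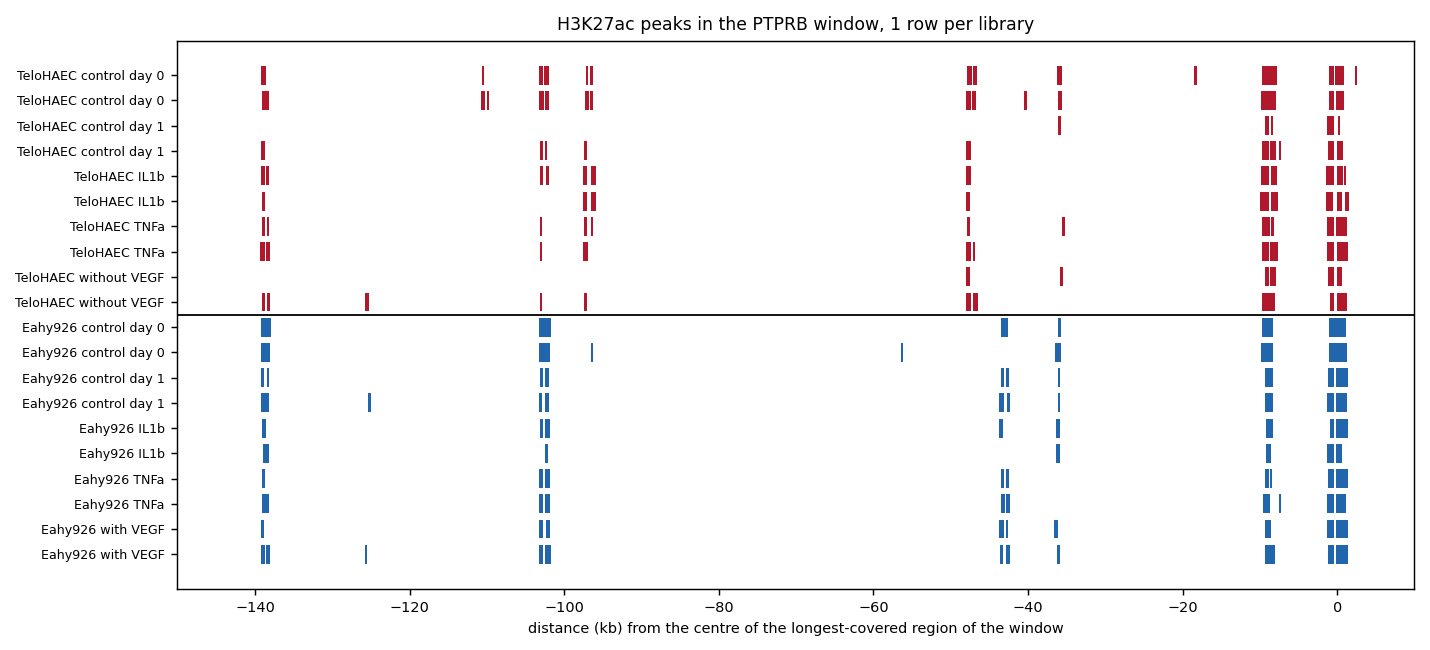
H3K27ac peaks in the PTPRB window, 1 row per library, red for TeloHAEC and blue for Eahy926. The horizontal axis is the distance in kb from the centre of the region with the longest mean coverage, and bars are peaks drawn to scale. The 2 blocks at the right are present in all 20 rows, and some small bars in the middle of the window fall at different places in the lines, with peaks in up to 9 TeloHAEC or 8 Eahy926 libraries.

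Over the whole PTPRB window, TeloHAEC held 6076 and 5944 bp in the day 0 controls, 4387 and 6158 bp in those of day 1, 6277 and 6656 bp with IL1b, 6018 and 6507 bp with TNFa, and 6269 and 7106 bp without VEGF. Eahy926 held 5341 and 5589 bp in the day 0 controls, 7406 and 7691 bp in those of day 1, 6923 and 6718 bp with IL1b, 6167 and 6057 bp with TNFa and 7225 and 7649 bp with VEGF. The lines overlapped. Their log2 difference was −0.11, negative in 2 of 4 conditions (exact two-sided permutation test, p = 0.29, unadjusted). Among 7 tested bins, 70940001 to 70950000 was higher in TeloHAEC controls, with 367 bp ± 246 against 46.0 bp ± 92.0 (SD, n = 4 each), a log2 difference of 1.10 (limma adjusted p = 0.0427). It passed the filter only through TeloHAEC libraries, where it is high, so its call gives no support of its own. Bin 71040001 to 71050000 was lower, with 663 bp ± 146 against 1204 bp ± 412 (SD, n = 4 each), a difference of −0.67 (adjusted p = 0.0123). That bin lies at the end of the window next to PTPRR and need not belong to PTPRB. The first was lost in 6 of 8 fits that left out 1 control library (adjusted p up to 0.164), and the second without TeloHAEC control 0.2 (adjusted p = 0.0616). No treatment gave a called bin in the PTPRB window.

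ANGPTL4, the lipoprotein lipase inhibitor, was the window in which the lines separated without overlap after scaling. TeloHAEC held 2523 and 2454 bp in the day 0 controls, 2237 and 2195 bp in those of day 1, 2636 and 2346 bp with IL1b, 2306 and 2669 bp with TNFa and 2444 and 2181 bp without VEGF. Eahy926 held 2823 and 2919 bp in the day 0 controls, 4015 and 3493 bp in those of day 1, 3991 and 4209 bp with IL1b, 4142 and 3494 bp with TNFa and 3952 and 3089 bp with VEGF. Every Eahy926 library was above every TeloHAEC library. Before scaling the lines overlapped, with 2426 to 4181 bp in Eahy926 and 1179 to 3941 bp in TeloHAEC, so the lack of overlap rests on the scaling. The means over the shared conditions were 2421 bp ± 179 in TeloHAEC and 3635 bp ± 544 in Eahy926 (SD, n = 8 each), a log2 difference of −0.54 with the same sign in 4 of 4 conditions. The exact two-sided permutation p was 0.00154, the smallest this design can give. The size was −0.19 in the day 0 controls and −0.71 in the day 1 controls, and the controls alone gave −0.45, with an exact permutation p of 0.0556, the smallest that 2 against 2 on 2 days allows.

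The 3 main ANGPTL4 regions differed in how far the lines stood apart, which was not tested per region. Regions 8419655 to 8420584 and 8420741 to 8422012 had peaks in all 20 libraries, with medians of 533 and 852 bp in TeloHAEC and 612 and 908 bp in Eahy926. Region 8427074 to 8428948 held 1011 to 2077 bp in Eahy926 (median 1752) and 0 to 1094 bp in TeloHAEC (median 903), overlapping only in the top TeloHAEC and bottom Eahy926 libraries. It was at 0 in TeloHAEC control 1.1 and TeloHAEC without VEGF 1.1. The only tested bin, 8420001 to 8430000, was lower in TeloHAEC controls, with 2158 bp ± 189 against 3252 bp ± 592 (SD, n = 4 each), a log2 difference of −0.54 (SE 0.12, limma adjusted p = 0.003). It stayed called without any 1 control library, with adjusted p from 0.00305 to 0.0179, and had an adjusted p of 0.095 with peaks of −log10 q of 5 or more. No treatment gave a called bin.

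The 6 windows did not move together. Across the 20 ChIP libraries the window most like TEK was TIE1 (Spearman's rho 0.54), PTPRB was most like ANGPT2 (0.65), ANGPTL4 most like ANGPT2 (0.58) and ANGPT1 most like ANGPTL4 (0.26). The libraries fall into 2 lines and share their scaling, so these values are descriptions. Within TeloHAEC (n = 10) rho between TEK and TIE1 was −0.30 and within Eahy926 (n = 10) it was 0.85. For ANGPT2 and PTPRB it was 0.61 and 0.36, and for ANGPT2 and ANGPTL4 it was −0.07 and 0.85. For ANGPT1 and ANGPTL4 the sign turned, with −0.83 within Eahy926, and no value could be had within TeloHAEC, where ANGPT1 was at 0 throughout.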

How the data were processed

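H3K27ac ChIP-seq peak lists of 20 ChIP and 4 input libraries were used. Reads were aligned to hg19 with Bowtie2 and peaks called with MACS2, per the submitters' processing notes. The caller was MACS 2.1.1.20160309 with a p threshold of 0.001 and no control file, 1 library at a time, per the file headers. The deposited pileup is a signal of stacked fragments, −log10 p and −log10 q are the authors' peak significance values, and the deposited fold enrichment is the authors' ratio over local background. No read counts per region were used, so the position and length of peaks were the only basis of comparison.

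Peaks of the 22 autosomes and X entered if their −log10 q reached 2, with the summits of an interval joined into 1 peak. Covered length was summed per window and per 10-kb bin, and scaled to the mean total covered length of the ChIP libraries (25.1 Mb). Bins covered by 500 bp or more in 2 or more libraries were analysed as log2(covered bp + 200), so fold changes of low bins are understated, with limma 3.58.1 in R 4.3.3. A single fit over 20 libraries held 10 group means and 10 residual degrees of freedom. The Benjamini-Hochberg adjustment ran over 39412 bins, and an adjusted p under 0.05 was a call. The spread of a bin was pooled over all groups, and groups at 0 in both libraries add none. This lowers p for bins such as the ANGPT1 bin and TEK bin 27140001 to 27150000. The fit was also run on simulated data with normal noise and larger changes than those called here, which does not test calls of this size. Window sums were compared between lines by an exact permutation test with labels exchanged within condition and day (1296 arrangements, smallest p 0.00154). Regions are peaks of all ChIP libraries merged at an overlap of at least 1 bp. Each comparison named every called bin, one-line, gained or lost region, and the 3 regions of each window with the longest mean coverage. Tables were made in Python 3.11.15 (pandas 2.3.3, numpy 2.4.6) and figures in matplotlib 3.10.9. Members, lists and tests were chosen with earlier results of these data known. Alternatives were other peak thresholds, an equal covered length, other pseudocounts, no filter, controls of both days, a replicate block, fits on the compared groups only, and each library left out in turn. Other genes of the pathway (DOK2, GRB7, PIK3R1, AKT1, FOXO1, KLF2, ESAM, VWF, SVEP1 and ITGA5) were not analysed here, since their hg19 positions were not at hand.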

Additional observations from a re-analysis of the deposited data

Results flagged for a closer look

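The PTPRB window of TeloHAEC control 1.1 held 4387 covered bp, far below the other 3 TeloHAEC controls (5944 to 6158 bp). It was the only library set apart in 11 control groups checked, where chance sets apart about 1 in 20, and it has the shortest peak list of the 20.

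With IL1b the TEK window moved in opposite directions in the lines, with a log2 difference from the day 1 controls of 0.42 in TeloHAEC and −0.41 in Eahy926. The PTPRB window did too, with 0.30 in TeloHAEC and −0.14 in Eahy926. In both windows every IL1b library lay on its side of the day 1 controls, and the difference between the lines was not tested on these sums. Eahy926 IL1b 1.2 and TeloHAEC control 1.1 are among the 3 shortest lists, and their part was not tested.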

How the results depend on the processing

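No result reversed under any alternative run. The line difference was −0.13 for ANGPT2, 0.21 for TEK, 0.13 for TIE1 and −0.45 for ANGPTL4 in controls alone. At equal covered length it was 0.34 for TEK, 0.56 for TIE1, −0.35 for ANGPT2, −0.92 for ANGPTL4 and 0 for ANGPT1. At −log10 q of 5 it was 0.61 for TIE1 and −0.32 for ANGPT2, and with lists as deposited 0.13 for TIE1. For ANGPT1 it was −1.52 with a pseudocount of 50 bp and −0.32 with 1000 bp, and for PTPRB −0.19 in controls alone. Leaving out 1 library gave 0.18 to 0.30 for TIE1. Called bins between the lines, 10 in the reported fit, numbered 3 at −log10 q of 5, 6 at equal covered length (18 tested), 6 with a pseudocount of 50 bp, 12 with 1000 bp, 7 with the compared groups alone, and 5 to 10 with 1 library left out. Without TeloHAEC control 1.2 the 10 calls were 2 higher and 8 lower in TeloHAEC, against 4 and 6. For IL1b in TeloHAEC the 1 called bin became 0 at −log10 q of 5, at equal covered length, with a pseudocount of 50 bp or with the compared groups alone, 2 with 1000 bp, and 0 to 4 with 1 library left out (4 without TeloHAEC control 1.2). For TNFa in TeloHAEC it became 0 at equal covered length, with 50 bp, with controls of both days or with the compared groups alone, 2 without the filter, and 0 to 5 with 1 library left out (5 without TeloHAEC control 1.2). For VEGF addition it became 0 at −log10 q of 5, at equal covered length, with 1000 bp, with controls of both days and with the compared groups alone, and 0 to 1 with 1 library left out. Counts of 0 became 0 to 2 for VEGF omission and 0 to 3 for the cytokine response between lines with 1 library left out, 1 for IL1b in Eahy926 with controls of both days and 1 for IL1b against TNFa without the filter. The TeloHAEC-only regions fell from 1 to 0 when peaks had to cover 50% of a region. The causes were not tested. Across tested bins, the replicate 1 minus replicate 2 difference of each treated group was correlated with that of its day 1 controls. The correlation ran from −0.042 to 0.156, which cannot tell whether same-numbered libraries share a culture. With the replicate block, the count for VEGF addition was 0 (ANGPT1 bin, limma adjusted p = 0.0639), and the ANGPT2 bin between lines had an adjusted p of 0.0505. Day 1 libraries had fewer tags than day 0 libraries, and the part of depth in absent peaks was not tested.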
